A study of Mus musculus with 12 samples.

Results

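The genes described here are 9 parts of the Notch pathway: the receptors Notch1, Notch2 and Notch3, the ligands Dll1, Jag1 and Jag2, and the target genes Hes1, Hes5 and Hey1. They were listed by symbol, matched to Ensembl identifiers, and make up 9 of the 55421 genes in the count table. PolyA RNA was sequenced from prefrontal cortex of wild-type male C57BL/6 mice, 10 to 12 weeks old, 2 h after fear training with 3 pairings of a tone and a 0.7 mA foot shock. The 4 groups hold 3 libraries each: prelimbic cortex after dexmedetomidine (PL Dex), prelimbic cortex after saline (PL saline), infralimbic cortex after dexmedetomidine (IL Dex) and infralimbic cortex after saline (IL saline). Dexmedetomidine, a sedative that activates alpha2 adrenergic receptors, was injected into the abdomen at 40 µg per kg in a volume of 10 ml per kg, and saline mice received the same volume. All groups share the training, and none was left untrained or uninjected. The titles name IL in 6 of the samples while the extraction protocol names prelimbic tissue for all, and the titles were followed. Nothing in the labels says that the 3 samples of a group are separate mice, so errors and p-values reflect sample-to-sample spread, which may be technical.

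Notch receptors are single-pass membrane proteins that are activated by ligands of the Delta and Jagged families on a neighbouring cell. Ligand binding exposes the receptor to ADAM10 and then to gamma-secretase, and the released intracellular part joins the DNA-binding protein RBPJ and a Mastermind protein to switch on genes such as those of the Hes and Hey families, which encode transcriptional repressors. In the brain the pathway is best known for keeping neural stem cells undifferentiated and for its roles in astrocytes, in blood vessels and in plasticity of mature neurons.

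Hes5 is the textbook target of this complex, and its start site is shown because it was the member whose promoter window held the RBPJ core sequence. RefSeq windows (GRCm38.p6, 250 bases before to 50 after the start) were available for 7 of the 9 members, with 8 windows in all because Dll1 has 2; Hes1 and Hey1 have no entry. The core TGGGAA, searched on both strands, is in 25.6% of 32851 windows of the same length. Among the member windows it was found in that of Hes5 alone, beginning 226 bases before the start on the minus strand and 82 bases before it on the plus strand. The window of Notch1, the member with no overlap between neighbouring groups, is given beside it; its RefSeq start lies inside the span that the count table gives the gene. Its capitals mark the Hes binding motif known as the N box (CACNAG), which is in 42.5% of all windows and occurs 3 times here, with 2 of the matches overlapping each other. The capitals in Hes5 mark the RBPJ core.
Hes5, chr4:154960673-154960972, plus strand: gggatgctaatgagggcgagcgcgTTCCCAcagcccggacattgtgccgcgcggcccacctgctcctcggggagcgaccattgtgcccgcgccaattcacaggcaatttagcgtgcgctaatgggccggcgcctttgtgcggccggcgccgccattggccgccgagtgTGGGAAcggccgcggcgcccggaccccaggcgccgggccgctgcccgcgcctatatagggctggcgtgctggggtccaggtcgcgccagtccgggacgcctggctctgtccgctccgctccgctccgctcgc
Notch1, chr2:26503773-26504072, minus strand: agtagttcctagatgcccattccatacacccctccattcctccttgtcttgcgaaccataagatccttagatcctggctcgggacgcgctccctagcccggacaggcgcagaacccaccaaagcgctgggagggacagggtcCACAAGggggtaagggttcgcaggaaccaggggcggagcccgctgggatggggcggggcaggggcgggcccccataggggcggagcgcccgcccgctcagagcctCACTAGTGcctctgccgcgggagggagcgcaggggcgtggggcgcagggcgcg
The N box was also found once in Notch2, 2 times in Notch3 and once in 1 of the Dll1 windows. The E box CACGTG, which is in 7.15% of all windows, was found in no member window. The GC content of the member windows ran from 55.7% for Jag1 to 86.0% for Jag2. A match is a description of the letters and not of a bound site.

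Levels are CPM (counts per 1000000 counts) on library sizes scaled by TMM, a factor per library that evens out differences in composition. Library totals were 6853832 to 7912150 counts in PL Dex, 6867249 to 8847876 in PL saline, 5419187 to 10874464 in IL Dex and 10603069 to 16530596 in IL saline, so that IL saline rests on the deepest counts. On the leading principal component, with 35.8% of the variance, IL libraries scored −38.4 to −29.3. In PL, libraries 1 and 2 of Dex (22.5 and 17.9) and library 1 of saline (19.6) lay nearer to IL than library 3 of Dex (48.8) or libraries 2 and 3 of saline (46.9 and 48.4). All neuron and excitatory cortical neuron markers were detected in every library. The labels give each sample a batch number that equals its sample number, so each batch holds 1 library of each group.

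Levels per kilobase of exon allow a rough comparison of genes. The length covers all annotated exon bases of a gene, such as 14232 for Notch1, which can exceed the expressed transcript and lower the value. By this scale Hey1 had the highest mean level over the 12 libraries at 12.3 CPM per kb. Jag2 followed at 5.45 CPM per kb and Notch2 at 4.65 CPM per kb. Notch1, Hes5 and Hes1 lay close together at 3.56, 3.56 and 3.49 CPM per kb, with ranges over libraries that overlap. Notch3 reached 2.34, Jag1 1.86 and Dll1 1.82 CPM per kb. Hes5, Hes1 and Dll1 rest on the fewest reads, with 22 to 101 counts per library for Hes5, 23 to 147 for Hes1 and 30 to 165 for Dll1, against 216 to 1087 for Notch1. Within a gene, the highest library exceeded the lowest by 1.63-fold for Hey1, the most even member, and by 3.82-fold for Hes1, the most variable.

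**Figure D1:**
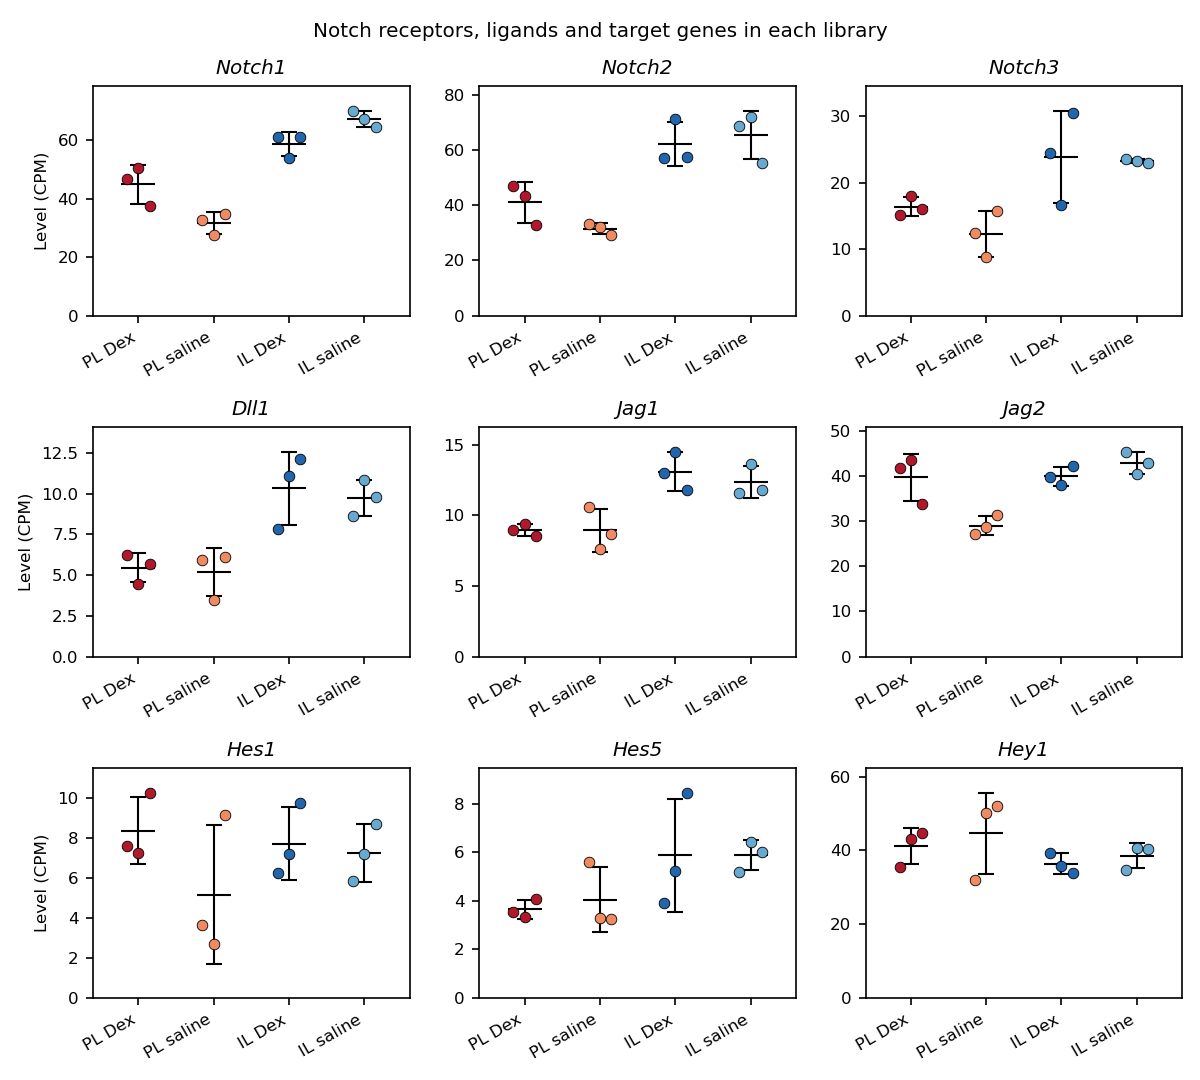
Level of each of the 9 genes (CPM, linear axis from 0) in the 12 libraries, with points for libraries 1 to 3 of each group from left to right, a horizontal line for the mean and bars for the SD (n = 3). Notch1 steps down over IL saline, IL Dex, PL Dex and PL saline with no overlap between neighbours, whereas Hey1 overlaps in all groups.

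Among the receptors, Notch1 and Notch2 in PL saline were 2.12-fold and 2.08-fold below IL saline, and all 3 receptors had a higher mean in PL Dex than in PL saline. Notch1 (ENSMUSG00000026923, chromosome 2, 26457903 to 26516663, GRCm38, as are all gene coordinates) encodes the receptor most studied in neural stem cells and in neuronal plasticity. In bulk tissue, here and below, fewer cells of a type and less RNA per cell cannot be told apart. Its level was 46.8, 50.5 and 37.5 CPM in the PL Dex libraries, against 32.7, 27.5 and 34.9 CPM in PL saline. It was 61.2, 53.8 and 61.0 CPM in IL Dex, against 70.2, 67.3 and 64.5 CPM in IL saline. In PL every Dex library was above every saline library, although PL Dex library 3 lay only a little above PL saline library 3; in IL every Dex library was below every saline library. Such opposite directions with no overlap in either region were seen in 0.44% of all genes tested. With 3 libraries per group some genes separate in this way without any effect, and whether 0.44% exceeds that was not tested. The log2 fold change of Dex against saline was 0.50 (SE 0.131, a 1.42-fold difference) in PL and −0.20 (SE 0.124) in IL. The 95% interval in IL, −0.454 to 0.0609, included 0. The difference between these effects was 0.70 (SE 0.180, 95% interval 0.325 to 1.07). With the GC correction described below, this difference was 0.46 (95% interval 0.138 to 0.776). PL Dex averaged 44.9 ± 6.66 CPM, PL saline 31.7 ± 3.77 CPM, IL Dex 58.7 ± 4.22 CPM and IL saline 67.3 ± 2.86 CPM (SD, n = 3 each), an order in which no neighbouring groups overlap.

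Notch2 (ENSMUSG00000027878, chromosome 3, 98013527 to 98150361) encodes a receptor that keeps adult neural stem cells quiescent and is abundant in glia. Its level was 47.2, 43.2 and 33.0 CPM in PL Dex, against 33.1, 32.1 and 29.2 CPM in PL saline. PL Dex libraries 1 and 2 stood above all PL saline libraries, and library 3 lay within their range. IL Dex had 57.3, 71.5 and 57.7 CPM and IL saline 68.9, 72.2 and 55.6 CPM, which overlap. Dex against saline gave a log2 fold change of 0.39 (SE 0.147) in PL and −0.08 (SE 0.139) in IL. All IL libraries were above all PL libraries for this gene, the lowest IL value being 55.6 CPM and the highest PL value 47.2 CPM.

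Notch3 (ENSMUSG00000038146, chromosome 17, 32120820 to 32166852) encodes the receptor of vascular smooth muscle and pericytes. It had 15.2, 17.9 and 16.1 CPM in PL Dex, against 12.4, 8.75 and 15.8 CPM in PL saline. PL Dex exceeded PL saline on average, with 1 saline library inside the Dex range. IL Dex was spread widely at 24.5, 16.6 and 30.5 CPM, while IL saline was tight at 23.6, 23.2 and 22.9 CPM. For Dex against saline the log2 fold change was 0.41 (SE 0.215) in PL and 0.05 (SE 0.196) in IL.

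Among the ligands, Jag2 alone had PL groups that did not overlap. Dll1 (ENSMUSG00000014773, chromosome 17, 15367354 to 15376872), a Delta ligand of progenitors and neurons, had 6.24, 4.48 and 5.67 CPM in PL Dex, against 5.90, 3.50 and 6.14 CPM in PL saline. It had 7.81, 11.1 and 12.1 CPM in IL Dex, against 8.60, 10.8 and 9.78 CPM in IL saline. Dex and saline overlapped in each region, and every IL library was above every PL library. With Dex against saline its log2 fold change was 0.09 (SE 0.261) in PL and 0.10 (SE 0.225) in IL.

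Jag1 (ENSMUSG00000027276, chromosome 2, 137081456 to 137116644), a Jagged ligand that signals to vascular smooth muscle and between neurons, had 8.95, 9.40 and 8.51 CPM in PL Dex, against 10.6, 7.59 and 8.66 CPM in PL saline. Its level was 13.0, 14.5 and 11.8 CPM in IL Dex, against 11.6, 13.6 and 11.8 CPM in IL saline. The means of Dex and saline were nearly the same in PL, with a log2 fold change of 0.01 (95% interval −0.389 to 0.406), and the IL libraries were again all above the PL libraries.

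Jag2 (ENSMUSG00000002799, chromosome 12, 112907819 to 112929776) encodes the other Jagged ligand. It had 41.8, 43.7 and 33.9 CPM in PL Dex, against 27.1, 28.7 and 31.3 CPM in PL saline. It had 39.8, 38.0 and 42.2 CPM in IL Dex, against 45.4, 40.5 and 42.9 CPM in IL saline. PL saline was thus the only group set apart for this ligand: its 3 libraries were below all the others, while PL Dex overlapped IL Dex. Dex differed from saline by a log2 fold change of 0.45 (SE 0.127) in PL and −0.10 (SE 0.122) in IL, and the difference between these was 0.55 (95% interval 0.185 to 0.920). With the GC correction described below, this difference was 0.30 (95% interval −0.0602 to 0.655), an interval that includes 0.

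For each target gene, neighbouring groups overlapped throughout the order of their levels. Hes1 (ENSMUSG00000022528, chromosome 16, 30064384 to 30067796), a repressor that oscillates in neural progenitors, had 7.59, 7.23 and 10.3 CPM in PL Dex, against 3.63, 2.68 and 9.14 CPM in PL saline. PL saline libraries 1 and 2 were the lowest of the 12, and library 3 was above libraries 1 and 2 of PL Dex, so the groups overlap. In PL its log2 fold change was 0.69 with an SE of 0.344, the largest value and the largest error among the 9 members in that comparison. IL Dex had 6.21, 7.18 and 9.74 CPM and IL saline 5.83, 7.17 and 8.72 CPM, a log2 fold change of 0.11 (SE 0.321). In every group the library of batch 3 was the highest for this gene.

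Hes5 (ENSMUSG00000048001, chromosome 4, 154960923 to 154962371), whose product represses neuronal differentiation genes and which carries the 2 RBPJ cores shown above, had 3.52, 3.33 and 4.05 CPM in PL Dex, against 5.60, 3.27 and 3.25 CPM in PL saline. The groups overlap, with PL saline library 1 above the other PL libraries. It had 3.91, 5.23 and 8.45 CPM in IL Dex, against 5.20, 6.41 and 5.99 CPM in IL saline. Its log2 fold change of Dex against saline was −0.13 (SE 0.319) in PL and 0.04 (SE 0.279) in IL. The interval in PL, −0.795 to 0.533, includes both 0 and the value of Notch1, so at this depth Hes5 could be told from neither.

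Hey1 (ENSMUSG00000040289, chromosome 3, 8663359 to 8667256), a repressor best known as a Notch target in blood vessels, had the smallest ratio of highest to lowest library. It had 35.5, 43.2 and 44.8 CPM in PL Dex, against 31.9, 50.1 and 52.0 CPM in PL saline. It had 39.4, 35.9 and 34.0 CPM in IL Dex, against 34.6, 40.7 and 40.3 CPM in IL saline. No group was set apart from another. In log2 terms Dex differed from saline by −0.12 (95% interval −0.449 to 0.205) in PL and −0.09 (95% interval −0.411 to 0.238) in IL. The ratio of Notch1 to Hey1 within a library, which no scaling of libraries can alter, was 1.32, 1.17 and 0.837 in PL Dex, against 1.02, 0.550 and 0.671 in PL saline, which overlap. It was 1.55, 1.5 and 1.79 in IL Dex, against 2.03, 1.66 and 1.60 in IL saline, above all PL values.

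Counted over the 9 genes, Dex against saline in PL gave 7 positive and 2 negative fold changes with a median log2 value of 0.386, beside −0.00253 over all genes tested. No member passed an adjusted p of 0.05 in edgeR's quasi-likelihood test, in which 0.02% of all 20015 genes tested passed. At an unadjusted p under 0.05, 2786 genes passed. Notch1 and Jag2 were the members whose PL groups did not overlap, both higher with Dex, and 7.57% of all genes were higher without overlap. These members were listed with values of the same libraries known, so the counts are a description.

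One library weighs on the PL values. Without PL Dex library 3, the log2 fold changes of Notch1, Notch2 and Jag2 became 0.62, 0.53 and 0.56, and these 3 genes passed the threshold, as did 7.06% of all genes in that fit, and 2.81% of all genes passed as higher. On the leading principal component library 3 (48.8) lay beside PL saline libraries 2 and 3, and the Dex libraries kept (22.5 and 17.9) lay nearer to IL. These 3 genes were lower in PL saline than in IL saline. The part of that position in the larger values was not tested. DESeq2 on all libraries passed Notch1 alone among the members, where 1.16% of the genes it adjusted passed and 0.477% passed as higher. When the 3 PL libraries nearer to IL were left out instead, an alternative chosen after seeing the data, the fold changes of the same genes were 0.28, 0.11 and 0.19; PL Dex is then library 3 alone, so these are given as values with no test. By batch, the log2 difference of PL Dex and PL saline was 0.52, 0.87 and 0.11 for Notch1 and 0.62, 0.61 and 0.12 for Jag2 in batches 1, 2 and 3. For Notch2 it was 0.51, 0.43 and 0.17. The sign was the same in every batch for these genes, which for Notch1 and Jag2 follows from PL groups that do not overlap. Notch3 and Hes1 were positive in every batch as well, and the sign differed between batches for Dll1, Jag1, Hes5 and Hey1. For Notch1, Jag2 and Notch2 the smallest differences were in batch 3.

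**Figure D2:**
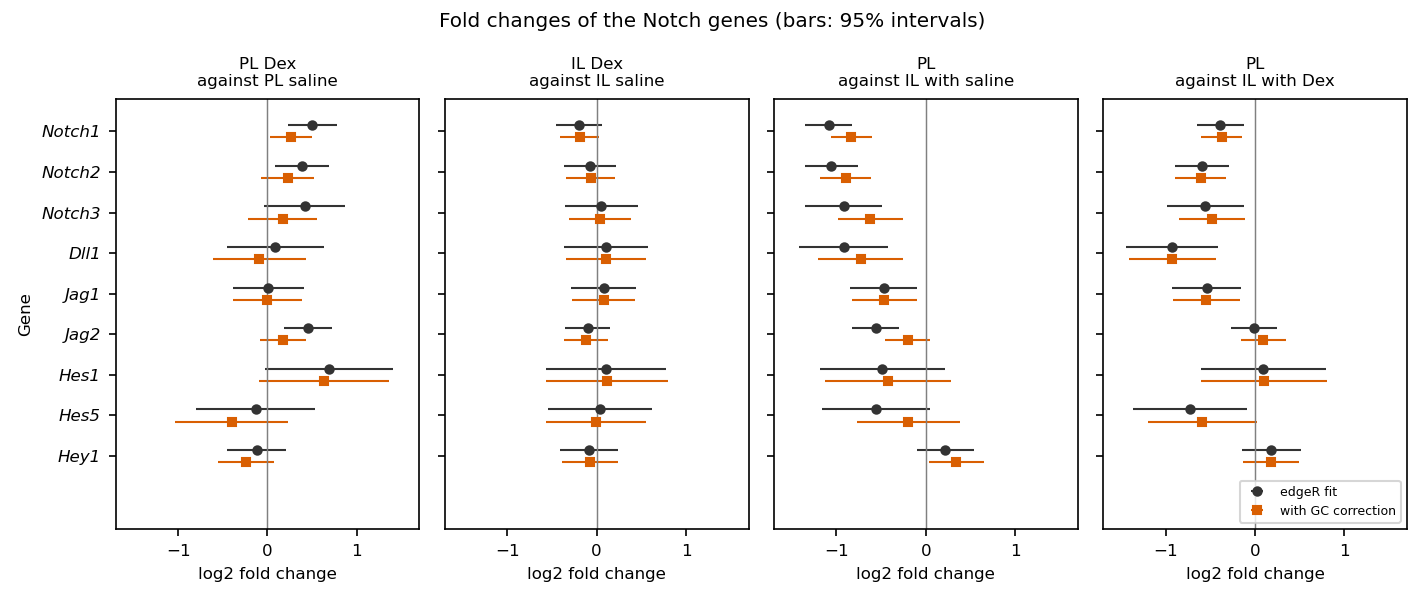
Log2 fold change of each of the 9 genes in 4 comparisons, from the fit to the counts (circles) and from the fit with a correction for GC content (squares), with bars for 95% intervals; positive values mean higher in the group named first. In PL the values of Notch1 and Jag2 moved toward 0 with the correction, to 0.27 and 0.18, while the receptors stayed below 0 in PL against IL with saline.

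GC content moved with the PL effect of Dex. The members are GC-rich: the longest transcripts held 48.77% GC in Jag1 to 62.14% in Hes5, beside a median of 48.38% over the genes tested, and Jag2 and Hes5 lay at the 98.4 and 98.5 percentiles. Over 19992 genes, Spearman's rho between GC content and the log2 fold change was 0.529 for PL Dex against PL saline and −0.0323 for IL Dex against IL saline. It was 0.471 for the difference of these effects, −0.419 for PL against IL with saline and −0.0514 for PL against IL with Dex. The points share libraries and are not independent, so no p is given. The slope of log2 level on GC, per 10 percentage points, was 0.118, 0.0976 and −0.0665 in PL Dex, against −0.249, −0.304 and −0.0724 in PL saline. The part of GC content in the PL values of the members was not tested. After a correction for GC content per library, the PL log2 fold changes were 0.27 for Notch1 (95% interval 0.0336 to 0.499), 0.22 for Notch2, 0.17 for Notch3, 0.18 for Jag2 and 0.63 for Hes1. The 95% intervals included 0 for Notch2 (−0.0689 to 0.518), Notch3 (−0.217 to 0.556), Jag2 (−0.0824 to 0.434) and Hes1 (−0.0980 to 1.36). Hes5 and Hey1 became −0.40 and −0.24, Dll1 −0.09 and Jag1 −0.0027, both with their sign turned, and the median of the members 0.17. With the correction and without PL Dex library 3, an alternative also chosen after seeing the data, no member passed, and 0.277% of all genes did.

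**Figure D3:**
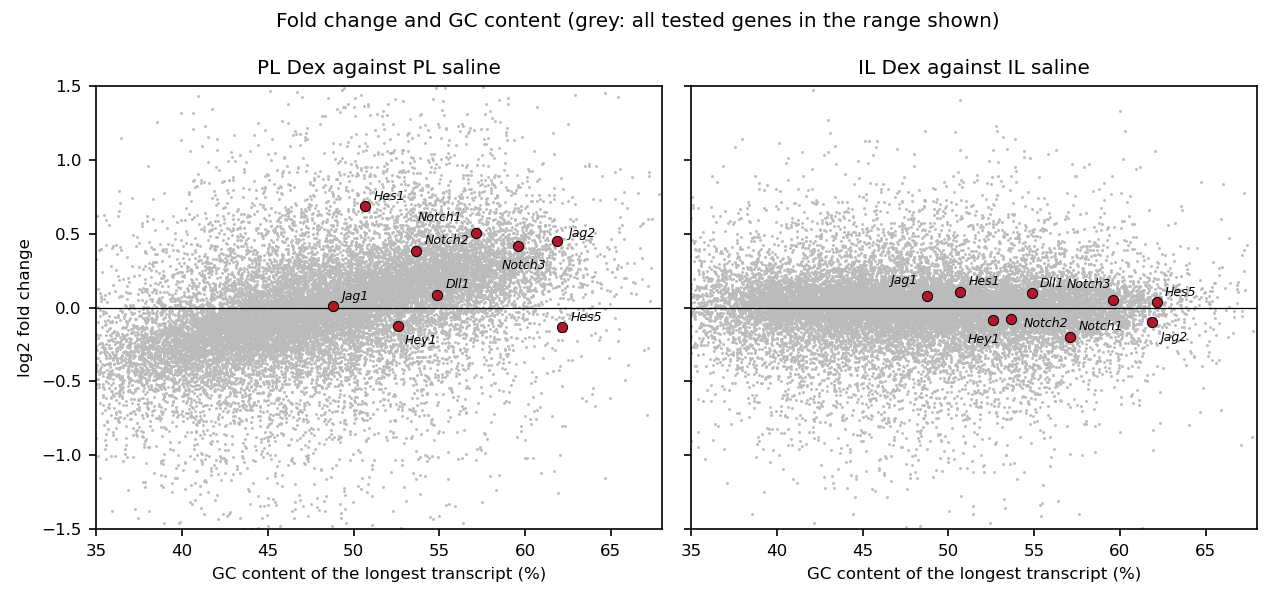
Log2 fold change of Dex against saline (vertical axis) by GC content of the longest transcript in percent (horizontal axis) in PL and in IL, with grey points for the tested genes in the range shown and red points for the 9 Notch genes. The cloud slopes upward in PL (rho 0.529) and is flat in IL (rho −0.0323); in PL the most GC-rich of the 9, Hes5 at 62.14%, lies at −0.13, Jag2 at 61.87% lies at 0.45, and Hes1, at 50.68%, is the highest at 0.69.

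In IL no member passed the threshold and 0.0% of all genes did, with 213 genes at an unadjusted p under 0.05 and 0 genes passed by DESeq2. The member fold changes ran from −0.20 for Notch1 to 0.11 for Hes1, with 5 positive and 4 negative. Notch1 was the 1 member lower without overlap, as were 3.99% of all genes. The difference of the PL and IL effects passed the threshold for no member and for 0.0% of all genes, with 1348 genes at an unadjusted p under 0.05 and 0 genes passed by DESeq2. Without PL Dex library 3, Notch1 passed in that test, as did 0.686% of all genes. With the GC correction added to that omission, no member and none of the 20970 genes tested passed. An effect of Dex on these genes in PL was therefore not shown to differ from that in IL with all libraries in the fit.

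More members passed between the regions than between the treatments. With saline, 8 of the 9 genes were lower in PL than in IL, with a median log2 fold change of −0.563 beside −0.0247 over all genes, and 5 passed the threshold, all lower: Notch1, Notch2, Notch3, Dll1 and Jag2. In this comparison 18.7% of all genes passed and 8.7% passed as lower. Notch1 stood at −1.09 (SE 0.128), Notch2 at −1.06 (SE 0.143), Notch3 at −0.92 (SE 0.206) and Dll1 at −0.92 (SE 0.240). Jag2 was at −0.56 (SE 0.124) and Jag1 at −0.47 (SE 0.179), while Hes1 (−0.49, SE 0.333), Hes5 (−0.56, SE 0.291) and Hey1 (0.22, SE 0.154) had intervals that include 0. The 3 receptors and 3 ligands did not overlap between the regions, all lower in PL, where 20.2% of all genes were lower without overlap. The GC slope was also lower in PL saline than in IL saline, where it was 0.0268, 0.0895 and 0.133, and with the GC correction Jag2 fell short of the threshold at −0.20 while the 4 others still passed, as did 13.2% of all genes. In that fit Notch1 stood at −0.83, Notch2 at −0.90, Notch3 at −0.62 and Dll1 at −0.73, each nearer to 0 than without the correction. Dll1 did not pass without PL saline library 2, where 8.98% of all genes passed, or without IL saline library 2, where 10.4% did. Jag1 passed as well without PL saline library 1, where 15.2% of all genes passed, and Hes1 without PL saline library 3, where 14.0% did.

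In the Dex groups the receptors' fold changes between regions were nearer to 0 than with saline, by the same amounts as the interaction above, which no member passed. Notch1 was at −0.39 (SE 0.127), Notch2 at −0.60 (SE 0.144) and Notch3 at −0.55 (SE 0.206) for PL Dex against IL Dex. Dll1 at −0.93 (SE 0.247) and Jag1 at −0.54 (SE 0.186) had nearly the values they had with saline. Jag2 was at −0.01 (95% interval −0.271 to 0.251) and Hes1 at 0.09 (SE 0.332), and both intervals include 0. Hes5 was at −0.73 (SE 0.306) and Hey1 at 0.18 (SE 0.159). Notch2 and Dll1 passed the threshold, both lower in PL Dex, where 7.34% of all genes passed and 3.54% passed as lower. Notch1, Notch2, Dll1 and Jag1 were lower in PL Dex without overlap, as were 10.8% of all genes. Notch1 and Notch2 passed without PL Dex library 2 (8.29% of all genes), Notch3 alone without IL Dex library 2 (3.75%) and Notch2 alone without IL Dex library 3 (5.7%), and without PL Dex library 3 none passed (5.32%). Notch1 passed beside Notch2 and Dll1 with the GC correction (9.16% of all genes), with the GC correction and replicate block (11.3%) and with scaling by total counts only (7.01%), and Notch3 passed beside them without the filter on low counts (4.71%). The comparisons share libraries, so the values are given side by side and no test of their agreement was made.

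Cell type markers moved with the region. The 7 markers of neural progenitors and immature neurons summed to 177 to 209 CPM in PL Dex, 193 to 217 CPM in PL saline, 267 to 370 CPM in IL Dex and 269 to 336 CPM in IL saline, and 5 of the 7 passed as lower in PL saline against IL saline. The 7 striatal neuron markers summed to 267 to 457 CPM in PL Dex, 299 to 771 CPM in PL saline, 1103 to 1696 CPM in IL Dex and 1145 to 1460 CPM in IL saline, with all 7 lower in PL and no overlap in either treatment. The 5 ependymal markers summed to 2.92 to 4.09 CPM in PL saline, with Ccdc153 and Tmem212 at 0 in all its libraries, against 12.7 to 18.1 CPM in IL saline. The 5 excitatory cortical neuron markers ran the other way, at 3460 to 4113 CPM in PL saline, against 2668 to 3281 CPM in IL saline, and the 3 septal neuron markers were at 15.2 to 46.0 CPM in PL saline, against 86.2 to 166 CPM in IL saline. The part of these cell types in the lower Notch receptors and ligands of PL was not tested.

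For astrocytes and vessels, from which several members are best known, the sums ran the other way or overlapped. The 11 astrocyte markers summed to 6879 to 7588 CPM in PL saline, against 5893 to 6268 CPM in IL saline, with 4 of the 11 higher and 7 lower by their means. The 8 mural markers, which include those of the pericytes known to use Notch3, summed to 178 to 209 CPM in PL saline, against 174 to 187 CPM in IL saline. The 10 endothelial markers summed to 205 to 213 CPM in PL saline, against 184 to 188 CPM in IL saline. Of the astrocyte markers 1 passed as higher and 2 as lower, of the tested mural markers 1 passed as lower, and of the endothelial markers 1 passed as higher. Sums of oligodendrocyte, microglia, meningeal and blood markers overlapped between PL saline and IL saline. The 6 inhibitory neuron markers summed to 518 to 735 CPM in PL saline, against 752 to 1017 CPM in IL saline. By their means 3 of the 6 were higher and 3 lower in PL saline, and 1 passed as higher and 2 as lower. The 4 oligodendrocyte precursor markers summed to 134.7 to 145.2 CPM in PL saline, against 145.3 to 161.8 CPM in IL saline, with 1 higher and 3 lower by their means. The 4 general neuron markers summed to 4127 to 4491 CPM in PL saline, against 2486 to 2702 CPM in IL saline, but by their means 2 were higher and 2 lower in PL saline. Between PL Dex and PL saline no marker on any of these lists passed the threshold; the astrocyte sum was 5618 to 7497 CPM in PL Dex and overlapped PL saline.

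Of 54 other pathway genes listed by role, 50 were tested; Dll3, Hes2, Hes3 and Hes7 had too few counts. None passed for Dex against saline in PL or in IL, or for the difference of these effects. Without PL Dex library 3, 5 passed in PL: Hes6, Mib2, Dtx1 and Notch4 as higher with Dex and Mib1 as lower, named here after their values were seen, where 7.06% of all genes passed and 2.81% passed as higher. In PL saline against IL saline 16 passed, or 32.0% of those tested, beside 18.7% of all genes. Of these 7 were higher, where 9.97% of all genes passed as higher, and 9 were lower. The count was 8 without PL saline library 2, where 8.98% of all genes passed, and also 8 without IL saline library 2, where 10.4% did. The median log2 fold change of the 50 was −0.186, beside −0.0247 over all genes. With the GC correction it was −0.019, beside −0.0145 over all genes, so the lower median was not seen in that fit.

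The receptor Notch4, of endothelial cells, was also lower in PL: it had 7.41, 7.0 and 5.41 CPM in PL saline, against 11.7, 12.1 and 12.0 CPM in IL saline, a log2 fold change of −0.85 (SE 0.198, adjusted p 0.00556 in edgeR), and did not pass with the GC correction. The core of the nuclear complex split: Rbpj, the DNA-binding partner of cleaved Notch, rose by 0.50 (SE 0.108, adjusted p 0.00368), and Maml1, its coactivator, fell by 0.53 (SE 0.136, adjusted p 0.0104). Adam10, the protease of the activating cleavage, rose by 0.52 (SE 0.115, adjusted p 0.00422), and none of the other 9 cleavage genes passed. Fbxw7, which marks the intracellular part for degradation, rose by 0.70 (SE 0.119, adjusted p 0.000571 in edgeR). The targets Hey2, Heyl and Nrarp averaged 4.80, 2.76 and 1.08 CPM in PL saline, against 4.91, 2.88 and 1.14 CPM in IL saline.

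Among the Deltex genes, whose products sort or modify the receptor, Dtx4 rose by 0.82 (SE 0.132, adjusted p 0.000323) and Dtx3 fell by 0.66 (SE 0.120, adjusted p 0.000961). Mib2, a ubiquitin ligase that acts on the ligands, fell by 0.49 (SE 0.126, adjusted p 0.0113). With the GC correction 8 genes passed instead of 16, in a fit where 13.2% of all genes passed. Dtx4, Fbxw7, Rbpj, Adam10 and Dtx3 were among the 8, and Maml1 and Mib2 were not. Without PL saline library 2 neither Maml1 nor Mib2 passed, and without IL saline library 2 Maml1 did not. In PL Dex against IL Dex 3 of the 50 passed, or 6.0% of those tested, below the 7.34% of all genes that passed. Of the 3, 2 were higher, where 3.8% of all genes passed as higher, and 1 was lower, where 3.54% passed as lower. Dtx4 rose by 1.06 (SE 0.135, adjusted p 7.62e-05 in edgeR) and Fbxw7 rose by 0.42 (SE 0.120, adjusted p 0.0353 in edgeR). Dlk1, a ligand-like protein without the receptor-activating domain, fell by 3.29 (SE 0.849, adjusted p 0.0428 in edgeR). Dlk1 had 1.22, 1.30 and 0.270 CPM in PL Dex, against 8.52, 12.0 and 7.26 CPM in IL Dex, and no longer passed when any library of either group was left out. Fbxw7 did not pass without PL Dex library 1 or 3 or IL Dex library 1 or 2.

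**Figure D4:**
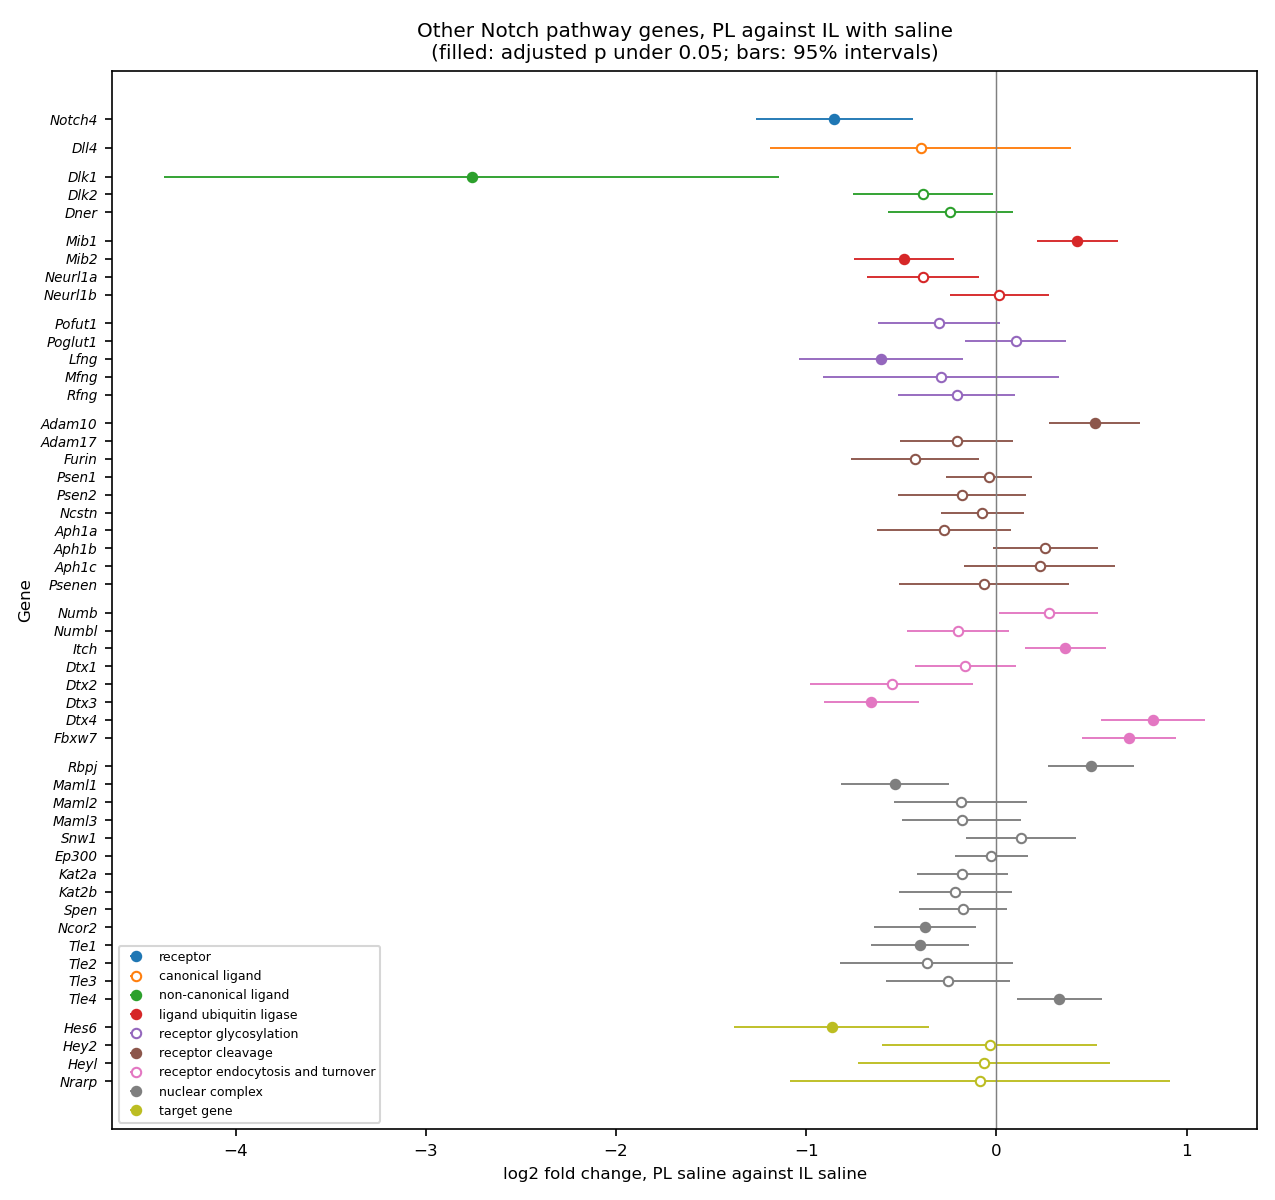
Log2 fold change of the 50 tested pathway genes outside the 9 members in PL saline against IL saline, grouped by role and coloured by role, with bars for 95% intervals and filled circles for an adjusted p under 0.05. Filled circles lie on both sides of 0, with 7 to the right and 9 to the left, and Dlk1 is the farthest to the left with the widest interval of those filled.

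By pattern over the 12 libraries, measured as the root-mean-square difference of log2 CPM after centring each gene, Notch1 and Notch2 were the closest pair of members. Notch1 differed from Notch2 by 0.189, from Notch3 by 0.206 and from Jag2 by 0.243. The target genes were farther from Notch1, at 0.400 for Hes5, 0.500 for Hes1 and 0.563 for Hey1, and Hes1 and Hes5 differed by 0.597. Hes5 was closer to the ligands Dll1 (0.299) and Jag1 (0.303) than Notch2 was to Notch3 (0.355), and Hey1 was 0.366 from Jag2. Dll1 and Hey1 were the farthest pair at 0.656. Among 13943 genes with a mean of at least 1 CPM, those nearest to Notch1 were Rapgef3 (0.103), Thbs3 (0.112) and Plxnb2 (0.138), beside a median of 0.501 over all. For Notch2 they were Ppfia4 (0.128), Ptpn5 (0.140) and Gtf2ird1 (0.143), and Notch3 had Notch1 itself next after Zfp423 (0.191) and Rgs14 (0.199). Jag2 was nearest to Wscd1 (0.0727), Hes1 to Nrros (0.165), Hes5 to Trim36 (0.170), Jag1 to Cpne5 (0.0893), Dll1 to Lingo3 (0.0959) and Hey1 to Sertm1 (0.103).

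Counting used no strand, so reads in exons shared with a gene on the opposite strand cannot be told apart. Exons of Notch1 overlap Gm13568 and 0610009E02Rik, those of Notch3 overlap Gm17276 and those of Hes5 overlap Gm20421, all on the opposite strand. Those of Notch2 overlap Gm42820 on the same strand, where a strand option would not separate them. The overlapping genes had 8 to 339 counts over all 12 libraries, which do not show how reads in the shared bases were handled. Dll1, Jag1, Jag2, Hes1 and Hey1 share no exon bases with another gene.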

How the data were processed

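Raw read counts per gene, whole numbers without normalization, are what the authors deposited. Per the file headers they were made with featureCounts 2.0.1 on exons without a strand option against GRCm38 release 98. The submitters' processing notes also name bcl2fastq, HISAT2, Trim Galore, SAMtools 1.8 and the build mm39; headers and notes differ on the build, and the coordinates equal GRCm38. Of the count columns, 12 matched no sample and were not used.

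The counts were fitted with edgeR 4.0.16 (R 4.3.3). filterByExpr kept 20015 of 55421 genes, TMM factors were 0.936 to 1.05, and a robust quasi-likelihood model with 1 mean per group was fitted to the 12 libraries (8 residual degrees of freedom, biological coefficient of variation 0.143). Tests were two-sided, with Benjamini-Hochberg adjustment over the genes tested and a threshold of 0.05. Library totals of 5419187 to 16530596 counts limit the precision for low genes. The code was tested on simulated data. The GC correction is a spline with 5 degrees of freedom on transcript GC, fitted per library. Alternatives used RLE factors, total counts only, DESeq2 1.42.0, no filter, a replicate block, the compared groups alone and each library left out.

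The members and gene lists were chosen with earlier results of these data known, so no p-value is given for a member. All 9 members are named. Of the other pathway genes, those past the threshold are named, at most 4 per comparison and direction by the smallest p. The tested receptor and targets outside the members are named with their levels. The nearest genes to a member are the 3 with the smallest difference. Marker lists of neurons, glia, vessels and neighbouring tissue were compared by summed level.

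The batch number in the labels equals the sample number, so the numbers pair the libraries across groups, and the replicate block is the fit with batch as a term. Deviations from the group means of same-numbered libraries correlated at 0.284 to 0.337 between IL Dex and IL saline. The range was 0.00857 to 0.108 between PL Dex and PL saline and 0.0265 to 0.191 between PL saline and IL saline. Between PL Dex and IL Dex it was −0.0933 to 0.0377.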

Additional observations from a re-analysis of the deposited data

Results flagged for a closer look

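Dex against saline went in opposite directions in the regions for Notch1, with no overlap between Dex and saline in either, a combination that 0.44% of all genes showed (88 of 20015). The difference of the PL and IL effects for Notch1 was 0.70 on the log2 scale, and 0.46 with the GC correction. It did not pass the threshold with all libraries and passed without PL Dex library 3, where 0.686% of all genes passed.

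Hes6, which encodes a Hes family protein that opposes Hes1 and was listed among the targets, had the same combination. It had 6.10, 7.09 and 4.19 CPM in PL Dex, against 3.78, 3.03 and 3.61 CPM in PL saline. It had 5.86, 5.23 and 5.61 CPM in IL Dex, against 6.45, 6.48 and 6.05 CPM in IL saline. The difference of the effects was 0.921 (SE 0.348, adjusted p 0.716 in edgeR).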

How the results depend on the processing

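Over 22 alternatives, 941 of 981 member fold changes moved by less than their spread, 40 moved by more and 0 reversed a call. Many of these could hardly move, since leaving out a library outside a comparison barely changes its fold change. Only a fold change that passed in the main fit could count as a reversed call. Others did change sign, as Notch3, Dll1, Hes1 and Hes5 did for Dex against saline in IL without IL Dex library 3. Of 242 values of named pathway genes 30 lost their call and 0 reversed. For Dex against saline in PL, members passing went from 0 to 1 with DESeq2 and ranged from 0 to 3 when each library was left out in turn, as other pathway genes did from 0 to 5. For the difference of the PL and IL effects the leave-one-out range for members was 0 to 1. For PL against IL with saline it was 4 to 6 for members, of which 4 to 7 passed over all alternatives, and 8 to 17 for the other pathway genes, of which 16 passed with all libraries, 8 with the GC correction, 9 with the GC correction and replicate block, and 7 with the GC correction and PL Dex library 3 left out. For PL against IL with Dex the leave-one-out range was 0 to 2 for members, of which 3 passed with the GC correction, with or without the block, with total counts only and without the filter, and 1 to 4 for the other pathway genes, of which 3 passed with all libraries, 5 with the GC correction and replicate block, 1 with the GC correction and PL Dex library 3 left out, and 7 without the 3 PL libraries that lie nearer to IL, where PL Dex is 1 library assumed to vary like the other groups. The last 2 settings were chosen after seeing the data, and the causes were not tested. The replicate block alone, which treats same-numbered libraries as pairs, left the members passing at 0 for the effects of Dex and their difference, at 5 for PL against IL with saline and at 2 with Dex; of the other pathway genes 17 and 4 passed in the last 2 comparisons. Scaling by total counts only moved the median of all genes in PL against IL with saline to −0.14, against −0.02 with TMM, and gave 1255 higher and 2755 lower calls, against 1996 and 1741; with Dex it gave 522 and 881, against 761 and 708. The low counts of Hes1, Hes5 and Dll1 limit their precision.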
